A study of Mus musculus with 2 samples.

Results

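The CDK inhibitor genes Cdkn1a, Cdkn1b, Cdkn1c, Cdkn2a, Cdkn2b, Cdkn2c and Cdkn2d were examined in mouse embryonic ureters by 2-colour microarray. Members were the non-control probes that the array files name as 1 of these 7 genes, which gave 12 of the 39429 probes. Of these, 7 probes of 6 genes were bright enough to be tested, among 20104 genes tested in all. Cdkn2a was the member that could not be tested.

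Each array compared total RNA of E14.5 ureters from an embryo group labelled Pax-cre/+;Smad4(fl/fl) in the sample labels and Pax2-cre/+;Smad4(fl/fl) in the series title, also called Smad4cKO (UE), with ureters of controls labelled Smad4(fl/?). All samples were of the NMRI strain. There were 2 arrays with 1 knockout and 1 control sample each, labelled female on replicate 1, where the knockout was in Cy3 and the control in Cy5, and male on replicate 2, where the dyes were swapped. Pax2 is expressed in the nephric duct lineage that gives rise to the ureter's epithelium, and the abbreviation UE is not spelled out in the labels, whereas RNA of the whole ureter was profiled. The second Smad4 allele of the controls, whether they carried Cre, and the number of embryos in a sample are not given. Because sex and dye orientation differ together, an array difference cannot be assigned to either. The p-values below weigh a gene's mean log2 ratio of knockout over control against a spread between arrays. That spread joins the gene's own 2 arrays (1 residual degree of freedom) with the spread over all genes (9.21 prior degrees of freedom). By their sex labels the 2 arrays hold different embryos, so this spread mixes embryo and sex differences with dye and technical ones. These parts cannot be told apart, and no label ties the arrays to separate litters.

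CDK inhibitors are small proteins that hold the cell division cycle in G1. The CIP/KIP family (Cdkn1a, Cdkn1b and Cdkn1c) binds complexes of cyclins with several CDKs, whereas the INK4 family (Cdkn2a, Cdkn2b, Cdkn2c and Cdkn2d) binds CDK4 and CDK6 and keeps them from their D-type cyclins. SMAD4 is the common partner of the SMAD proteins that carry BMP and TGF-beta signals, and Cdkn1a and Cdkn2b are textbook targets of TGF-beta in epithelial cells. The comparison here asks whether the level of these transcripts differed in ureters labelled knockout for Smad4.

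The RefSeq promoter table for build GRCm38.p6 held 9 start windows of 6 members. The 250 bases before the start are shown for both start windows of Cdkn1a, the member with the largest difference, and for Cdkn2b, the other textbook target of TGF-beta. Capitals mark matches, on either strand, to the SMAD-box letters CAGAC, the GC-box letters GGGCGG, the letters TATAA or the p53 half-site consensus. None of the shown windows held GGCGCC, the letters of a GC-rich SMAD site, which was searched in the same way.

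Cdkn1a upstream window, chr17:29090729-29090978, plus strand: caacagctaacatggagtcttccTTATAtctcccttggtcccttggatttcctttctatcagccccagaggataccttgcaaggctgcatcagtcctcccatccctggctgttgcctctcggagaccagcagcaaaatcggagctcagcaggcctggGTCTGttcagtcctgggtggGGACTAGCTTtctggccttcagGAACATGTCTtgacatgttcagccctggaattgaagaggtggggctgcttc

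Cdkn1a downstream window, chr17:29093519-29093768, plus strand: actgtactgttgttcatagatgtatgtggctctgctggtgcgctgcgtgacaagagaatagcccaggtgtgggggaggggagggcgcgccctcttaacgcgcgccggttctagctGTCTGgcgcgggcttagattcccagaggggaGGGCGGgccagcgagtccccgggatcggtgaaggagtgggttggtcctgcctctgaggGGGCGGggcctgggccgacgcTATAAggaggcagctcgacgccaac

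Cdkn2b window, chr4:89311033-89311282, minus strand: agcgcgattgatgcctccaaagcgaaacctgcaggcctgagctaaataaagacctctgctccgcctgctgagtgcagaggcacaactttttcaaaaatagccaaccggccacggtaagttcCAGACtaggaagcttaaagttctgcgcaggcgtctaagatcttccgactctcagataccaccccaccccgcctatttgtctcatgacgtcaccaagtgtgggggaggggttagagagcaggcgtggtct

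The windows of Cdkn1a lie 2790 bases apart. The upstream one held 2 p53 half-site matches, beginning 73 and 51 bases before the start, and a TATAA match at 227 bases. The downstream one held no p53 half-site match. It held 2 GC boxes, at 104 and 46 bases, and a TATAA at 25 bases before the start. CAGAC matched once in each of the 3 windows, at 93, 135 and 129 bases before the start in the order shown. Over all 32817 windows of this length, 42.2% held CAGAC, 32.7% GGGCGG, 22.8% TATAA, 9.59% GGCGCC and 7.12% a p53 half-site. At least 2 matches were found in 16.7% of windows for GGGCGG and in 0.259% for the p53 half-site. These matches describe letters in the windows and not bound sites.

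Between 66.6% and 69.0% of non-control spots were well above background in each channel, no spot was saturated, and each probe was printed in 4 spots. Of 60 markers fixed for the ureter and for tissues around it, 57 could be tested. All 8 urothelial, all 8 general epithelial and all 8 mesenchymal and smooth muscle markers were measured, and so were 6 of 6 skeletal muscle, 6 of 6 neuronal and glial, 4 of 6 nephron and 5 of 6 adrenal and gonad markers. Umod and Nphs1 of the nephron and Amh of the gonad did not reach the requirement. The Smad4 probes read between -0.58 and -0.08 (log2, labelled knockout over labelled control) with a mean of -0.33 ± 0.36 (SD, n = 2) for the brighter one (limma adjusted p = 1.00). It is not known here whether these probes sit inside the floxed segment, and they are no check of the genotype labels. Directions follow the dyes in the labels. Taken in title order, knockout first, the signed folds in the authors' deposited table point the opposite way, with -1.26 and -1.36 for the tested Cdkn1a probe on replicates 1 and 2.

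Of the 12 probes, 5 were not well above background in any spot of any channel: 2 of Cdkn1a, both of Cdkn2a and 1 of Cdkn2b. The mean signal of the Cdkn2a probes, which lie at mm9 chromosome 4 positions 88920405 to 88920464 and 88920543 to 88920602, ran from 30.02 to 49.03 intensity units in Cy3 over local backgrounds of 22.8 to 27.5. In Cy5 it ran from 84.0 to 120 over backgrounds of 73.9 to 84.0. Cdkn2a encodes p16INK4a and, in another reading frame, p19ARF, and both probes list the accessions of both transcripts (NM_009877 and NM_001040654) and so cannot separate them. No order between knockout and control can be read for Cdkn2a, and a difference was not detectable.

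**Figure D1:**
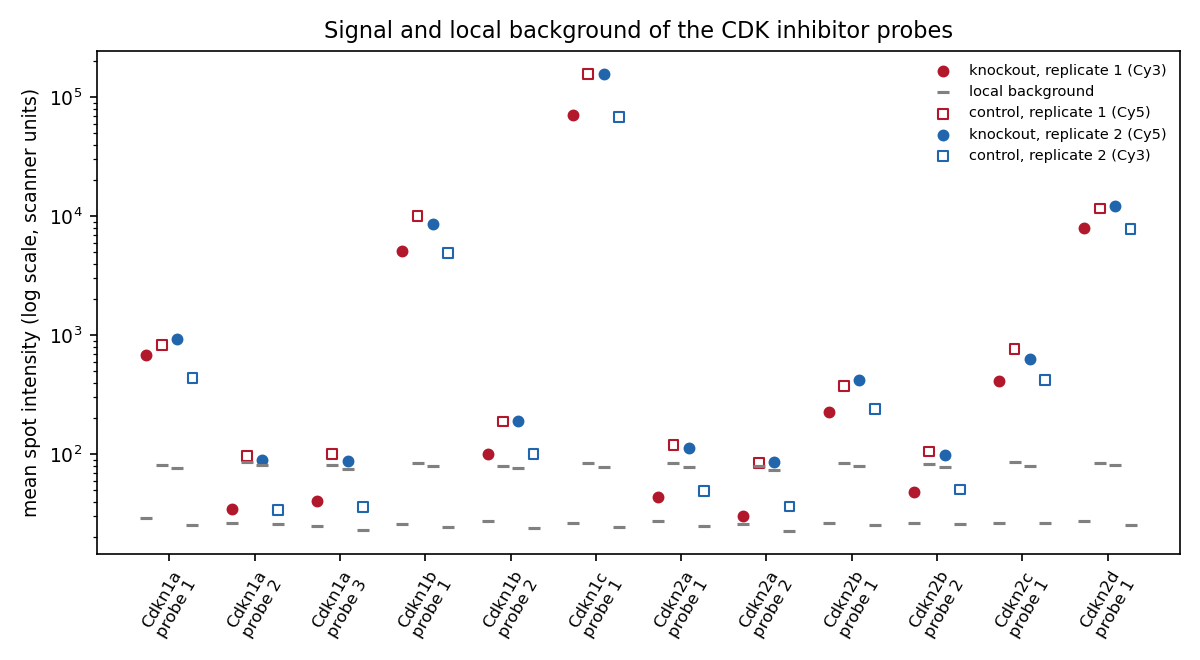
Mean spot intensity (log scale) of the 12 CDK inhibitor probes in each of the 4 channels, with the local background of each channel as a grey dash; filled circles are labelled knockout and open squares labelled control. Probe 2 and probe 3 of Cdkn1a, both probes of Cdkn2a and probe 2 of Cdkn2b lie close to the background, and the others lie above it in all 4 channels.

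Of the 6 CDK inhibitor genes tested, 0 passed limma's test at an adjusted p of 0.05, against 0.328% of all genes (66 of 20104). At an unadjusted p under 0.05 there was 1 member, Cdkn1a, against 4.55% of all genes. Cdkn1a and Cdkn2d were above 0 on both arrays, as were 21.7% of all genes, and Cdkn2c was below 0 on both, as were 24.6%. The other 3, Cdkn1b, Cdkn1c and Cdkn2b, had opposite signs. All 3 were brighter in the Cy5 channel on both arrays, which held for 27.1% of all genes. A further 26.5% of all genes had opposite signs and were brighter in Cy3 on both arrays. The median of the 6 log2 ratios was -0.15 on replicate 1 and 0.15 on replicate 2, where those of all genes were -0.0093 and -0.0034. The group's median, though not each member, thus lay on opposite sides of 0 on the 2 arrays. The median of its means was -0.0064, against -0.0044 for all genes. The 66 genes that passed had absolute mean log2 ratios from 0.69 to 2.21, beyond every CDK inhibitor.

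Cdkn1a encodes p21, an inhibitor of cyclin-CDK complexes that is induced by p53 and by TGF-beta. On its tested probe (NM_007669, mm9 chromosome 17 positions 29237377 to 29237436), the normalised log2 intensity was 9.75 in labelled knockout and 9.48 in labelled control on replicate 1, and 9.59 and 9.14 on replicate 2. Both knockout channels thus lay above both control channels, a pattern that 13% of all genes showed. Among the members Cdkn2d showed it too, at a mean log2 ratio of 0.04. The log2 ratios of the 2 arrays were 0.26 and 0.45 and averaged 0.36 ± 0.13 (SD, n = 2). This is 1.28-fold higher in labelled knockout, with a 95% interval from 1.06-fold to 1.55-fold, and it missed the threshold (limma adjusted p = 0.762, unadjusted p = 0.0156). All 4 spots on each array were above 0, from 0.13 to 0.35 on replicate 1 and from 0.39 to 0.54 on replicate 2. Of all genes, 2.74% had an absolute mean ratio at least as large.

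Both other probes of Cdkn1a lie upstream of the tested one. The probe named for transcript variant 2 (NM_001111099), 9391 bases upstream, gave a mean signal of 40.6 in knockout (Cy3) and 99.7 in control (Cy5) on replicate 1, over local backgrounds of 25.1 and 81.3. On replicate 2 it gave 87.9 in knockout (Cy5) and 36.3 in control (Cy3), over 75.8 and 23.3. The third probe, 2078 bases upstream, was as dim. The value of Cdkn1a therefore rests on 1 probe, whose accessions in the array file cover both transcript variants, and the share of each variant, and so the use of each start window shown above, was not measured.

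Cell type markers were read beside Cdkn1a, which itself missed the adjusted threshold. Of the marker lists, only the urothelial one held genes that passed. Among 8 urothelial markers 4 passed limma's test, each higher in labelled knockout, and 6 were above 0 on both arrays. With median centring, or with no filter on dim probes, 0 of the 8 passed (5 at an unadjusted limma p under 0.05 in each), with medians of 1.04 and 1.02 against 1.02. Their summed normalised intensity was 46694 and 38412 in labelled knockout against 33706 and 25075 in labelled control. Of 8 general epithelial markers 0 passed (3 at an unadjusted limma p under 0.05), but 8 were above 0 on both arrays, with a median of 0.25 and sums of 248947 and 214892 against 212533 and 198296. Skeletal muscle markers were above 0 on both arrays in 4 of 6, with sums of 6281 and 4234 against 3425 and 3816. Endothelial sums were lower within each array, 20375 and 16598 against 22895 and 18915, and so were adrenal and gonad sums, 1420 and 1276 against 1848 and 1368. By gene, 3 of 6 endothelial markers were below 0 on both arrays and 3 had opposite signs (median -0.03). Of these 6, 1 had an unadjusted limma p under 0.05. Of 5 adrenal and gonad markers, 2 were below 0 on both arrays, 1 was above 0 on both and 2 had opposite signs (median -0.05). An unadjusted limma p under 0.05 was reached by 2 of these 5. Among 6 macrophage markers, 2 were above 0 on both arrays and 4 had opposite signs (median 0.11), with 1 at an unadjusted limma p under 0.05. The neuronal and glial list and the nephron list had 0 at that level. Of the mesenchymal and smooth muscle markers, whose sums were 50123 and 45784 against 55682 and 43792, 0 passed and 2 had an unadjusted limma p under 0.05. These were Foxf1 at -0.70 ± 0.43 and Myocd at -0.44 ± 0.33 (SD, n = 2), named after their values were seen. They were the only 2 of the 8 below 0 on both arrays, while 4 were above 0 on both and 2 had opposite signs. The median of this list was 0.13. The part of all these markers in the Cdkn1a value was not tested, and in whole ureters the number of cells of a type and the RNA per cell cannot be told apart.

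Cdkn1b encodes p27, which restrains cyclin E-CDK2 and is mainly controlled by protein turnover. Its brighter probe (NM_009875, mm9 chromosome 6 positions 134875424 to 134875483) read 12.59 in labelled knockout and 13.00 in labelled control on replicate 1, and 12.78 and 12.54 on replicate 2. The knockout channels were therefore lower on the female array and higher on the male array, and the groups overlapped. The log2 ratios were -0.41 and 0.24, with a mean of -0.08 ± 0.46 (SD, n = 2; 95% interval -0.43 to 0.26; limma adjusted p = 1.00). The spots of an array lay close together, with an SD of 0.0046 on replicate 1 and 0.069 on replicate 2. A dimmer probe 1818 bases upstream, well above background in all 4 spots of each channel, read -0.03 and 0.03, the same signs at a much smaller size. The mean over both probes was -0.04.

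Cdkn1c encodes p57, an imprinted inhibitor with a role in growth restraint and differentiation in the embryo. Its single probe (NM_009876, mm9 chromosome 7 positions 150644753 to 150644812) read 16.55 in labelled knockout and 16.82 in labelled control on replicate 1, and 16.75 and 16.58 on replicate 2. As for Cdkn1b, the labelled knockout was lower on the female array and higher on the male array. The log2 ratios were -0.28 and 0.17, with a mean of -0.05 ± 0.32 (SD, n = 2; 95% interval -0.36 to 0.25; limma adjusted p = 1.00). All 4 spots were below 0 on replicate 1 and all 4 above 0 on replicate 2. With median centring in place of loess the mean was 0.031, so no direction can be given.

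Among the INK4 genes, Cdkn2b encodes p15, which TGF-beta induces in epithelial cells. Its tested probe (NM_007670, mm9 chromosome 4 positions 88952276 to 88952335) read 8.36 in labelled knockout and 8.38 in labelled control on replicate 1, and 8.44 and 8.30 on replicate 2. The labelled knockout value on replicate 1 thus lay between the control values, and 1 outlier spot of replicate 2 was left out. The log2 ratios were -0.02 and 0.14, with a mean of 0.06 ± 0.11 (SD, n = 2; limma adjusted p = 1.00). The 95% interval ran from 0.864-fold to 1.26-fold, which leaves room for modest differences in either direction.

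Cdkn2c encodes p18, an INK4 protein expressed in many embryonic tissues. Its probe (NM_001301368, mm9 chromosome 4 positions 109333508 to 109333567) read 9.10 in labelled knockout and 9.37 in labelled control on replicate 1, and 9.02 and 9.08 on replicate 2. The labelled knockout was lower within each array, though the groups overlapped across arrays. The log2 ratios were -0.27 and -0.05, with a mean of -0.16 ± 0.15 (SD, n = 2; 95% interval -0.44 to 0.11; limma adjusted p = 1.00). On replicate 1 all 4 spots were below 0, and on replicate 2 there was 1 spot above 0.

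Cdkn2d encodes the INK4 protein p19INK4d, not to be confused with p19ARF. Its probe (NM_009878, mm9 chromosome 9 positions 21092934 to 21092993) read 13.27 in labelled knockout and 13.21 in labelled control on replicate 1, and 13.27 and 13.25 on replicate 2. The knockout channels lay above the control channels by less than the SD of the spots, 0.060 on replicate 1 and 0.047 on replicate 2. The log2 ratios were 0.05 and 0.03, with a mean of 0.04 ± 0.02 (SD, n = 2; 95% interval -0.22 to 0.31; limma adjusted p = 1.00). Of the 6 genes it had the smallest absolute mean and the smallest SD between arrays.

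**Figure D2:**
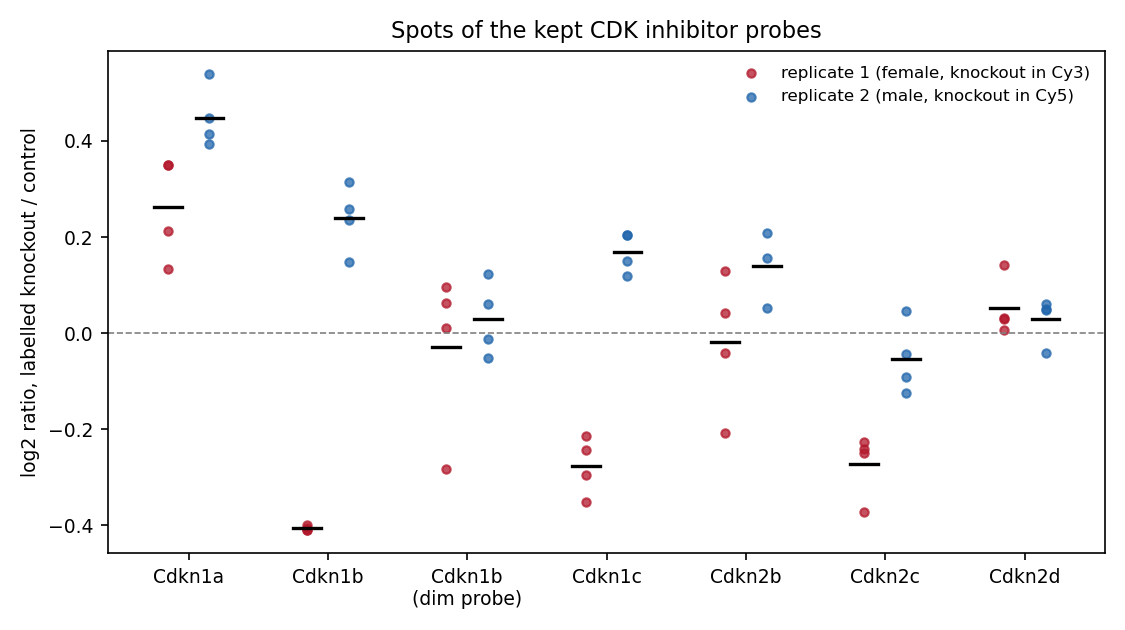
The log2 ratio of labelled knockout over labelled control in each spot of the 7 kept probes, with red for replicate 1, blue for replicate 2 and a bar at the mean of each array; outlier spots are left out. All spots of Cdkn1a lie above 0 on both arrays, the brighter Cdkn1b probe and Cdkn1c split by array, and Cdkn2d lies near 0.

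**Figure D3:**
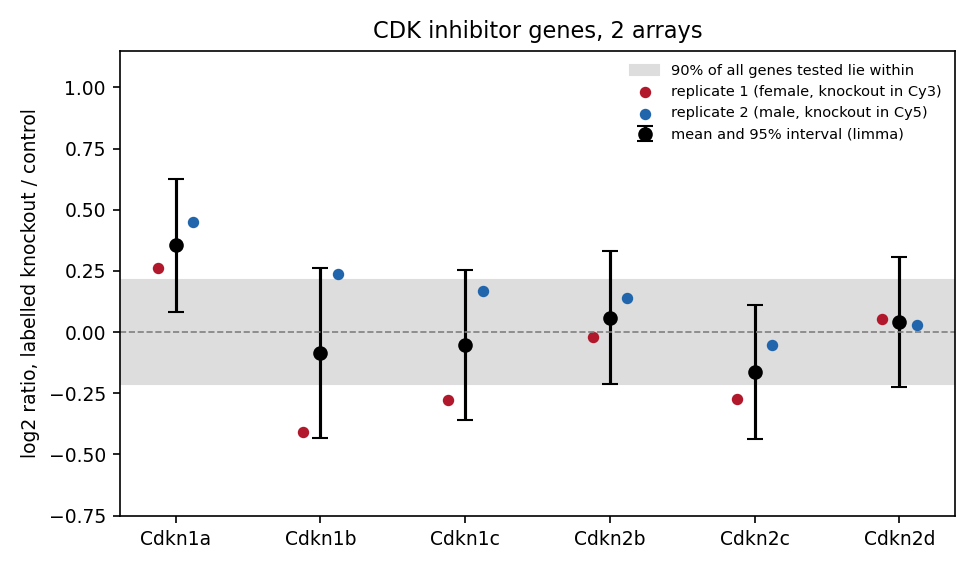
The mean log2 ratio of the 6 tested genes with its 95% interval from limma (black) and the value of each array (red, blue); the grey band holds the means of 90% of all genes tested, within 0.21 of 0. The mean of Cdkn1a lies outside the band and its interval does not include 0, before adjustment, while the other 5 means lie inside the band.

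The partners and targets of the CDK inhibitors were read from the same fit. Over 9 lists with 112 genes, 110 genes were tested and 1 passed, Perp, with a median mean ratio of -0.03 and 3 genes (Perp, Id1 and Phlda2) at an unadjusted p under 0.05, so that each count of 0 below is also 0 unadjusted except where those genes are listed. None of 7 CDKs and CDK-activating kinase genes passed (median 0.05). Cdk6, a target of the INK4 proteins, read -0.22 ± 0.42 (SD, n = 2), and Mnat1 and Cdk7 of the activating kinase read 0.18 ± 0.19 and 0.12 ± 0.48. None of 8 measured cyclins passed (median -0.04). The members with the largest absolute means were the D-type cyclins that INK4 proteins compete with: Ccnd1 at -0.20 ± 0.25, Ccnd2 at -0.16 ± 0.05 and Ccnd3 at -0.13 ± 0.05, each below 0 on both arrays. Of the 8 cyclins, 5 were below 0 on both arrays, as were 24.6% of all genes, and 3 had opposite signs. A shared direction of the cyclins was not tested.

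None of 5 CDC25 phosphatase and WEE1 kinase genes passed (median -0.11), with Cdc25b at -0.24 ± 0.20, Cdc25c at 0.18 ± 0.30 and Pkmyt1 at -0.12 ± 0.15. Among 13 pocket protein and E2F genes, through which CDK inhibitors act on S phase entry, none passed (median -0.12). E2f7 and E2f8, atypical repressor E2Fs, read -0.27 ± 0.36 and -0.26 ± 0.37, and E2f4 read -0.17 ± 0.34. The 25 cell division genes had a median of -0.03 and none passed, with the replication licensing gene Cdt1 at -0.25 ± 0.13, Mcm3 at -0.22 ± 0.13 and the mitotic kinase gene Aurkb at -0.19 ± 0.12. Of these 25, 8 were below 0 and 5 above 0 on both arrays.

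None of 11 genes of CDK inhibitor turnover passed (median -0.01). Skp2, the F-box protein that marks p27 for degradation, read -0.19 ± 0.49, Cul1 of the same ligase 0.20 ± 0.14 and Ddb1 -0.16 ± 0.28. Among 17 measured p53 targets other than Cdkn1a, Perp passed, a desmosome component at 2.52-fold higher in labelled knockout (limma adjusted p = 0.00126), and 16 did not. Its call ended with median centring (2.54-fold, limma adjusted p = 1.00) and with no filter on dim probes (2.52-fold, limma adjusted p = 0.346). Trp53inp1 read 0.25 ± 0.03 and Zmat3 -0.18 ± 0.06, and the median of the list was 0.03. On both arrays 6 of the 17 were above 0 and 3 below 0.

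Of 14 regulators of the Cdkn2a-Cdkn2b locus none passed (median -0.03). Id1, an inhibitor of basic helix-loop-helix factors that represses Cdkn2a and responds to BMP, read 0.53 ± 0.10 (limma adjusted p = 0.197), the ETS factor gene Ets2 -0.17 ± 0.02 and the Polycomb gene Cbx2 -0.15 ± 0.30. None of 10 genes in or beside the imprinted domain of Cdkn1c passed (median 0.0016). Phlda2, which is imprinted like Cdkn1c, read 0.35 ± 0.0042 (limma adjusted p = 0.712), Slc22a18 0.16 ± 0.13 and the non-coding Kcnq1ot1 -0.14 ± 0.14. Phlda2 was above 0 on both arrays, unlike Cdkn1c.

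**Figure D4:**
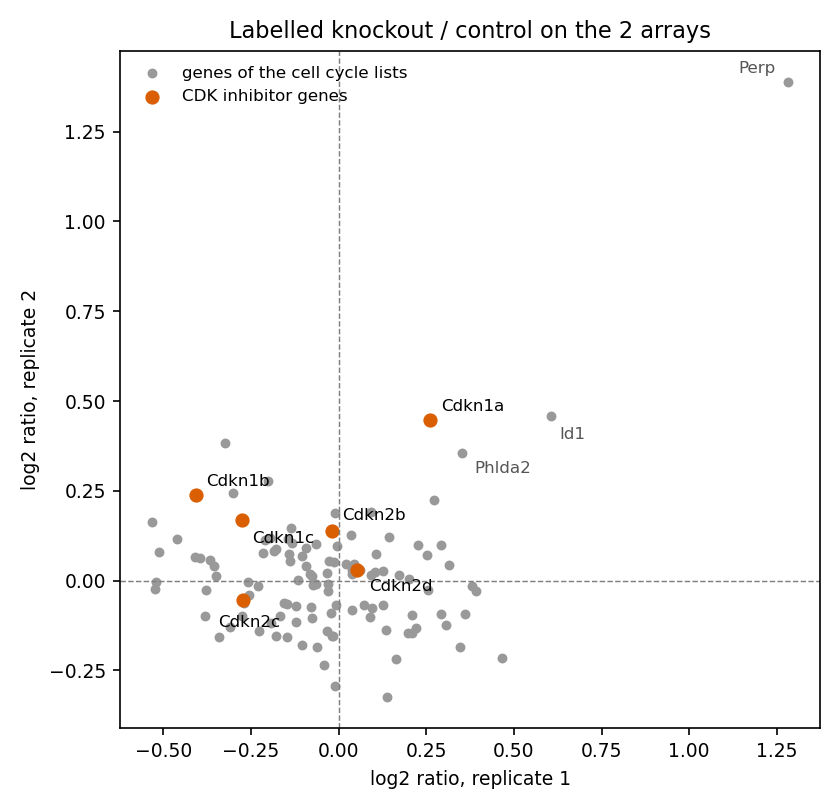
The log2 ratio of labelled knockout over labelled control on replicate 1 (x axis) against replicate 2 (y axis) for the genes of the cell cycle lists (grey) and the 6 CDK inhibitor genes tested (orange). Perp, at 1.28 and 1.39, stands far from the rest, Cdkn1a lies in the upper right near Phlda2, and Cdkn1b and Cdkn1c lie in the upper left.

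The genes of these lists closest to each member, by the distance between their pairs of log2 ratios over the 2 arrays, were taken as a description. For Cdkn1a they were Phlda2 (distance 0.128, at 0.35 and 0.36), Trp53inp1 (0.225) and the pocket protein gene Rbl2 (0.307). For Cdkn1b they were Tyms, Cdc20 and Skp2, and for Cdkn1c Tyms, Ezh2 and H19. For Cdkn2b they were Cdk1, Bmi1 and Ascl2, for Cdkn2c Tfdp2, E2f3 and Aurkb, and for Cdkn2d Tfdp1, Cul4b and Mcm5. No gene of the lists lay within 0.1 of Cdkn1a or of Cdkn1b (nearest Tyms at 0.106), whereas the nearest to Cdkn2c and Cdkn2d lay at 0.0103 and 0.0101.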

How the data were processed

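According to the submitters' processing notes, Agilent Feature Extraction 10.7.3.1 read each array. Per the file headers, it gave spot intensity as mean signal and median local background, a processed intensity, and the log10 of Cy5 over Cy3. The table that the authors deposited holds a score for each probe, a signed fold with a median of 1 on each array. It correlated at -0.822 and -0.739 with knockout over control as set by the dyes in the labels. Read by those dyes it runs control over knockout, with a scaling that no source used here states. The correlations cannot show whether the dye labels or the title order is right, and every direction here follows the dye labels.

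Here, with limma 3.58.1 in R 4.3.3, background was corrected by normexp (offset 50) and arrays by loess, control spots at weight 0 and outlier spots left out. The 4 spots of a probe were averaged. A probe was kept where, in at least 1 genotype, each array had 2 or more spots marked well above background, and a gene was its brightest probe. A two-sided test set the ratios of the 2 arrays against 0, and p-values were adjusted by Benjamini-Hochberg over 20104 genes (1 residual degree of freedom, 9.21 prior). The script was tested on simulated data. Depth has no meaning for arrays; their number limits the precision. Probe positions come from the array file (mm9), and names were updated through RefSeq (28328 probes by accession, 3400 by symbol, 243 by older symbol, 7458 unmatched). Figures used matplotlib 3.10.9.

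The members and lists were chosen with earlier results of these data known. The text names all members, the genes of each list that passed or otherwise the 3 with the largest absolute mean, and the 3 list genes nearest each member. Alternatives were other background corrections, normalisations, filters, probe rules and priors, the deposited table, unpaired channels and single arrays.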

Additional observations from a re-analysis of the deposited data

Results flagged for a closer look

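For 3 CDK inhibitor genes the log2 ratio was below 0 on the female array and above 0 on the male array, and these differences were not tested. The male array exceeded the female array by 0.646 for Cdkn1b (-0.41 and 0.24), by 0.446 for Cdkn1c (-0.28 and 0.17) and by 0.158 for Cdkn2b (-0.02 and 0.14), all as log2 ratios. The female value of Cdkn2b was close to 0, with 2 of its 4 spots above 0, and in the authors' deposited table its signed folds of -1.03 and -1.09 have the same sign on both arrays. Cdkn2c (0.219) and Cdkn1a (0.187) had larger gaps between the arrays than Cdkn2b, without a change of sign, and Cdkn2d had -0.023. Cdkn1b, Cdkn1c and Cdkn2b were each brighter in Cy5 on both arrays, a pattern shared by 27.1% of all genes, and sex and dye cannot be told apart here. The dimmer Cdkn1b probe had the same signs at a smaller size, -0.03 and 0.03.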

How the results depend on the processing

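Over 11 tested alternatives, 0 CDK inhibitor genes passed limma's adjusted threshold in each, and the lowest adjusted p of any was 0.526 (Cdkn1a, mean over probes). Alternatives that change only the filter, the prior or the pairing, and scaling between arrays, left the member means as they were. Under those that recompute the ratios (median centring, the deposited values, the other background settings and processed signals), Cdkn1c reversed to 0.031 with median centring, and the cause was not tested. The other members' means kept their sign there. The deposited values had first been turned to the direction of the labelled ratios by the sign of their correlation. Their shared direction was therefore set beforehand and is no separate check of it. Cdkn1a stayed between 0.36 and 0.39, and was 0.26 and 0.45 on single arrays, which give no test.

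The array is the pair. In a fit of 4 unpaired channels with no replicate block, Cdkn1a was 0.36 (limma adjusted p = 0.993), 0 members passed, and 26 of all genes did, against 66 in the paired fit.

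The count over all genes was 246 with processed signals, 115 without background correction, 131 with an offset of 0, 191 with the authors' deposited values and 156 with an intensity-trend prior. It was 0 with median centring (347 at an unadjusted limma p under 0.05) and 0 with no filter (1097 unadjusted). The count over the cell cycle lists went from 1 to 0 under median centring and under no filter (3 and 5 unadjusted). With 2 arrays, modest differences remain undetectable, and Cdkn2a had no signal well above background.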
